A study of Mus musculus with 24 samples.

Results

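The B cell and T cell transcripts examined in liver were 9 genes: Ighm, Jchain, Cd79a, Cd79b and Ms4a1 of B lineage cells, and Cd3d, Cd3g, Cd8a and Cd4 of T cells. They were taken as the probe sets whose only gene symbol in the platform table was 1 of these 9, which gave 25 probe sets, and they are 9 of 18194 genes named in that way on the array. Liver RNA came from 24 male BALB/c mice, 6 weeks old on arrival and given 1 week to settle, with 1 Affymetrix array per mouse and 4 groups of 6. Untreated mice received no injection and the purified diet AIN93G for 14 days (control). The other groups had a single intraperitoneal dose of 185 mg/kg streptozotocin (STZ) in citrate buffer, were kept only if non-fasting glucose lay between 230 and 400 mg/dL a week later, and then received AIN93G alone (STZ) or with 0.1% or 0.5% quercetin for 14 days. No vehicle injection of the controls is described, so injection, diabetes and streptozotocin itself cannot be told apart in any comparison with control. Cages held 3 mice and no mouse is tied to a cage, so the cage cannot be told apart from the group.

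B cells display IgM on their surface as part of the antigen receptor, and plasma cells secrete it joined by the J chain. T cells carry an antigen receptor whose signalling chains include the CD3 proteins, with CD4 or CD8 as coreceptor. A liver holds lymphocytes in its sinusoids and portal tracts beside a large macrophage population, the Kupffer cells. Streptozotocin is a glucose analogue that alkylates DNA, used to destroy pancreatic beta cells, and it is also known to lower lymphocyte numbers. Quercetin is a plant flavonol. Because RNA was taken from whole liver, fewer cells of a type and less RNA per cell cannot be told apart.

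Promoter sequences are shown for a gene that fell (Jchain), for a B cell gene close to the lower end of signal (Cd79a) and for a T cell gene there (Cd3g). Each line gives the 250 bases before the annotated start, 5′ to 3′ on the strand of the gene, from RefSeq's annotation of GRCm38.p6. Capitals mark the E box CAGGTG or its reverse complement CACCTG, the letters bound by E proteins of developing lymphocytes.
Jchain (chr5:88527898-88528147, minus strand): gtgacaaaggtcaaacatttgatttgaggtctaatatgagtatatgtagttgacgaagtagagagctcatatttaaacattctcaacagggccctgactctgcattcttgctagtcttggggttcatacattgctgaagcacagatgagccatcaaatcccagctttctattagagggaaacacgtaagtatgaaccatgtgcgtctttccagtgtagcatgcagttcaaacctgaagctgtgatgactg
Cd79a (chr7:24897247-24897496, plus strand): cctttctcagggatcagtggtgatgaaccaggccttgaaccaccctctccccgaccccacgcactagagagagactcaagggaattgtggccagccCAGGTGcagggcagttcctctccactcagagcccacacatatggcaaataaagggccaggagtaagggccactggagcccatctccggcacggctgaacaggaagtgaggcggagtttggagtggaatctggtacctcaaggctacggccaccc
Cd3g (chr9:44980432-44980681, minus strand): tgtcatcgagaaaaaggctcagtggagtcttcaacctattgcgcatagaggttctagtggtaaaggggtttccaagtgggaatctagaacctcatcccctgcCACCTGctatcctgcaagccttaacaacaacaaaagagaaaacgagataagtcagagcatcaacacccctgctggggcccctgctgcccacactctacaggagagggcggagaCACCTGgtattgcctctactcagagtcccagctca
An entry was found for 5 of the 9 genes, Jchain, Cd79a, Cd3g, Cd3d and Cd8a. In a window from 250 bases before to 50 after the start, read on both strands, 4 of the 5 held the E box, against 20.2% of all 32851 promoters of that length. Cd3g held it at -148 and -35, Cd79a at -154, Cd3d at -112, and Jchain at 6 bases after the start, beyond the stretch printed. The octamer ATGCAAAT of immunoglobulin promoters was in 0 of the 5 windows and in 1.74% of all, and the EBF letters CCCNNGGG were in 0 of the 5 and in 13.7% of all. With matches to the E box alone, no motif overlapped another, and a match is a description of the sequence alone.

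Values are probe set intensities on a linear scale after quantile normalisation across the 24 arrays, and differences are of log2(intensity + 16). The constant of 16 compresses changes of dim probe sets. A gene was represented by its brightest probe set and tested if that set was brighter on average than 40% of all probe sets, an intensity of about 3.88. As a check of the labelled tissue, the 9 tested hepatocyte genes averaged 11.2 to 11.6 in log2 on every array. In the 0.5% quercetin group, replicates 5 and 6 stood apart from the other 4: on the first principal component of all tested genes they lay at -17.2 and -19.2, beside the controls (-18.3 to -13.5), while the others lay at 3.17 to 9.50. In lying with the controls they went against their label, their own glucose values are not given in the sources used here, and what set them apart was not tested, so every value of that group depends on whether they belong in it. Where leaving out both moves a member's value given here by over 1.5 times or across the threshold, it is given with and without them. The component by which they stood apart also separates control from STZ mice, so a larger difference from control without them is no independent support. The log2 signal of the Gapdh control probe set at the 3′ end less that at the 5′ end, a sign of RNA integrity and labelling, was -0.04 ± 0.17 (SD, n = 6) in control and -0.34 ± 0.10 in STZ mice (exact permutation test, two-sided p = 0.00433), -0.32 ± 0.15 at 0.1% and -0.21 ± 0.17 at 0.5% quercetin.

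Of the 9 genes, 6 passed the filter and were tested, 4 of the 5 B lineage genes and 2 of the 4 T cell genes. The order of their mean signal over all arrays, as percentiles of all probe sets, was Ighm 84.7, Jchain 65.4, Cd8a 59.9, Cd79b 58.6, Cd3g 43.9 and Ms4a1 42.4. Cd79a (33.9), Cd3d (22.2) and Cd4 (7.90) were below it, so the defining CD4 coreceptor gave next to no signal in any group. These percentiles compare probe sets and say nothing of transcript abundance between genes, since probes differ in brightness.

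**Figure D1:**
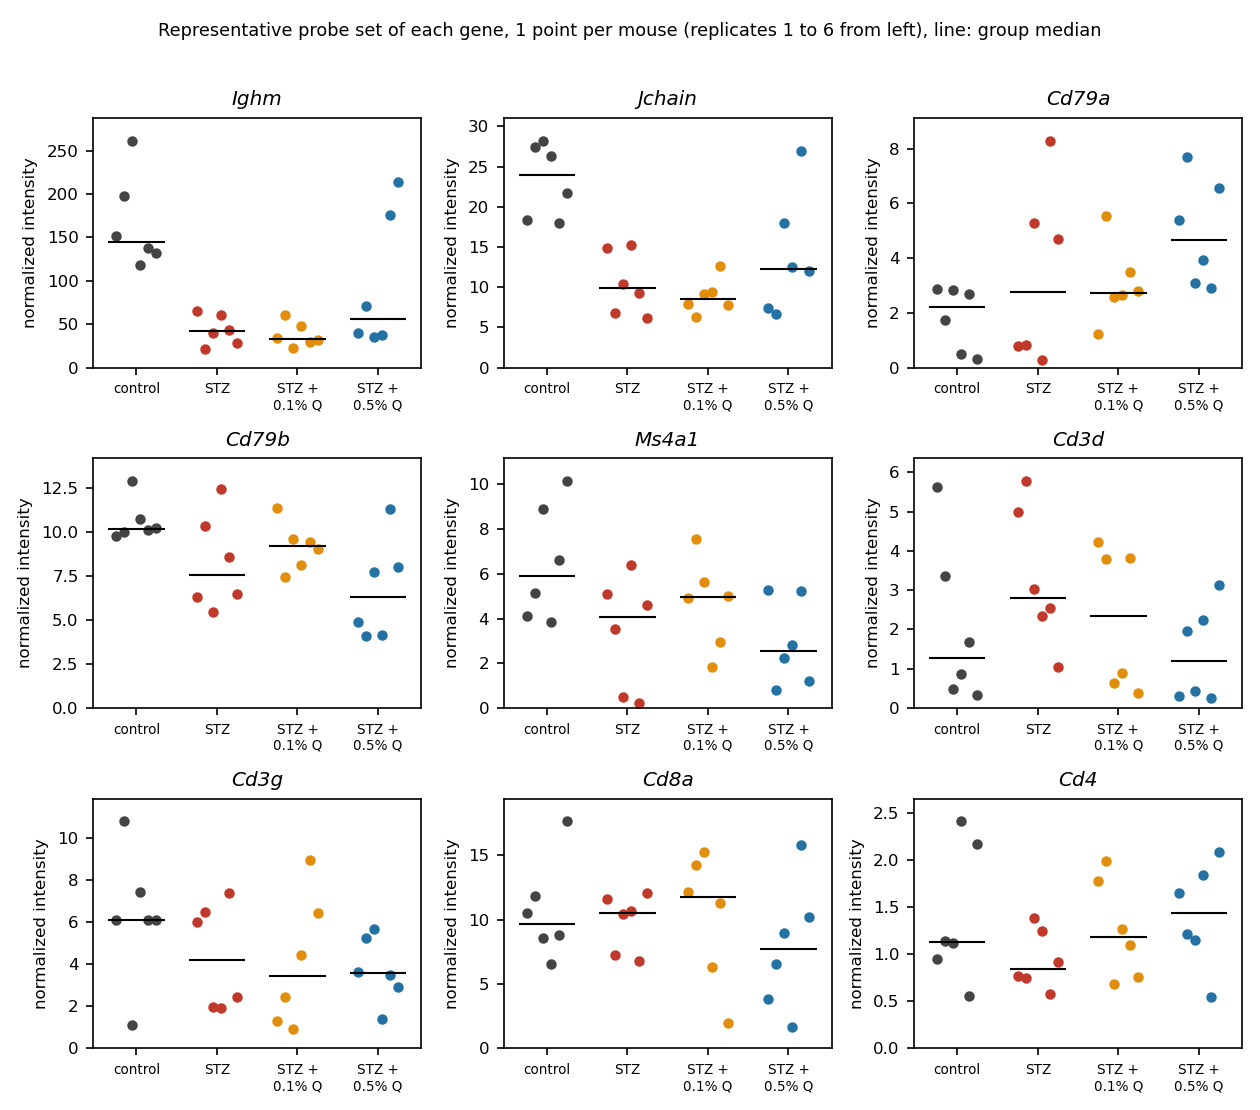
Normalized intensity (vertical axis, linear, from 0) of the representative probe set of each gene in the 4 groups, with 1 point per mouse in order of replicate number and a line at the group median. Ighm lies between 118 and 262 in controls and at or below 65.5 in STZ mice, and replicates 5 and 6 at 0.5% quercetin (176 and 213) lie in the control range. Jchain reaches 28.2, and the panels of the 7 genes other than Ighm and Jchain hold no value above 17.6.

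Ighm and Jchain, the genes of the IgM heavy chain and of the joining chain, were lower in livers of STZ mice than in controls. Ighm (probe set 1427351_s_at) ran from 118 to 262 in controls with a median of 144, and from 20.9 to 65.5 in STZ mice with a median of 41.5. Every STZ mouse lay below every control mouse. The fall was 1.63 on the log2 scale (SE 0.30, 95% interval -2.25 to -1.01), or 3.10-fold, with an adjusted p of 0.00283 in limma, and mean intensity was 3.85 times as high in controls. The exact permutation test over the mice gave p = 0.00216 (two-sided, unadjusted), the smallest that 924 arrangements allow.

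Jchain (1424305_at), which links IgM and IgA into polymers, ran from 18.0 to 28.2 in controls with a median of 24.0. In STZ mice it ran from 6.22 to 15.2 with a median of 9.84, again with every STZ mouse below every control. It fell by 0.58 (SE 0.13, 95% interval -0.83 to -0.32, adjusted p = 0.00888 in limma), 1.49-fold on this scale and 2.23-fold in mean intensity. Thus 2 of the 6 tested members fell and 0 rose, where 1.69% of all 13114 tested genes fell and 2.03% rose in the same comparison and 2.23% lay lower with no overlap between the groups.

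At 0.1% quercetin the same genes were low. Ighm ran from 22.0 to 60.9 with a median of 32.7, and Jchain from 6.34 to 12.7 with a median of 8.54. All 6 mice lay below all controls for both genes. Ighm fell by 1.76 against control (SE 0.30, 95% interval -2.38 to -1.14, adjusted p = 0.00107, limma) and Jchain fell by 0.66 (SE 0.13, 95% interval -0.91 to -0.40, adjusted p = 0.00213), while 2.64% of all genes tested fell and 1.83% lay lower with no overlap. The control mice are the same as in the comparison of STZ with control.

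At 0.5% quercetin the mice divided. Ighm was 39.8, 71.0, 35.5 and 37.1 in replicates 1 to 4, below every control, and 176 and 213 in replicates 5 and 6, within the control range. Jchain was 7.42, 6.65, 18.0, 12.5, 26.9 and 12.0 in replicates 1 to 6, so that replicate 5 lay in the control range, replicate 3 at its lower edge and replicate 6 below it. Over all 6 mice neither gene passed: Ighm differed by -0.95 (95% interval -1.57 to -0.33, adjusted p = 0.187, limma) and Jchain by -0.42 (95% interval -0.68 to -0.17, adjusted p = 0.150). In this comparison 0 of 6 tested members fell, beside 0.0763% of all genes, and 6.98% of all genes were lower at an unadjusted p under 0.05, as were 4 of the 6 members.

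With these doubtful mice left out, Ighm fell by 1.55 (adjusted p = 0.000111, limma), Jchain by 0.55 (adjusted p = 0.00970) and Cd79b by 0.33 (adjusted p = 0.0271) at 0.5% quercetin. Of all 13114 tested genes, 199 fell in that fit. Leaving out replicate 5 alone gave -1.16 for Ighm (adjusted p = 0.0491) and -0.53 for Jchain (0.0162), and leaving out replicate 6 alone gave -1.21 (0.0238) and -0.41 (0.138). The same mice lay near the controls in other measures. Their MHC class II list averages were 5.67 and 5.40 in log2, where the other 4 mice of the group had 6.09 to 6.34, and their Gapdh 3′ minus 5′ differences were -0.06 and 0.01, where the others had -0.40 to -0.14. The part of either in the immunoglobulin values was not tested.

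Between the STZ groups no difference in Ighm or Jchain passed. Against STZ alone, Ighm differed by -0.13 at 0.1% (95% interval -0.75 to 0.50, adjusted p = 0.999, limma) and by 0.68 at 0.5% quercetin (95% interval 0.06 to 1.31, adjusted p = 0.615). Between the doses the Ighm difference was 0.81 (95% interval 0.19 to 1.43, adjusted p = 0.501), with 3 of 6 mice at 0.5% above all mice at 0.1%. Without replicates 5 and 6 at 0.5% these Ighm differences were 0.08 (95% interval -0.38 to 0.55, adjusted p = 0.998) and 0.21 (95% interval -0.25 to 0.67, adjusted p = 0.987). Jchain differed from STZ alone by -0.08 at 0.1% (adjusted p = 0.992) and 0.15 at 0.5% (0.825), and between doses by 0.23 (0.628), where the values at 0.5% were 0.03 (0.998) and 0.11 (0.987) without those 2 mice. The other 7 members differed by -0.16 (Cd79b) to 0.13 (Cd79a), both between the doses, and none passed, with Cd79b lowest at an adjusted p of 0.626. Without the same mice Cd79b differed by -0.25 (adjusted p = 0.919) and Cd8a by -0.29 (0.976) between the doses, and by -0.19 and -0.29 from STZ alone (both 0.998). Percentages of all genes called were 0 in these 3 comparisons, with 5.24%, 7.51% and 8.34% at an unadjusted p under 0.05 in either direction, in the order 0.1% against STZ, 0.5% against STZ and 0.5% against 0.1%.

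Across all 18 STZ-treated mice, 16 lay below every control for Ighm and 16 for Jchain. For the mean of the 3 STZ groups the Ighm difference from control was -1.45 (SE 0.25, 95% interval -1.95 to -0.94, adjusted p = 0.000841, limma), and the Jchain difference was -0.55 (SE 0.10, 95% interval -0.76 to -0.34, adjusted p = 0.00163). Of all genes tested, 2.88% fell in this comparison. With the Gapdh 3′ minus 5′ difference as a covariate the calls were lost: Ighm then differed by -0.82 in STZ mice (adjusted p = 0.391), by -1.01 at 0.1% quercetin (0.131) and by -0.77 over the 3 groups (0.188), and Jchain by -0.44 (0.387), -0.53 (0.135) and -0.44 (0.158). In that fit 2 of all tested genes fell and 4 rose in STZ mice. The covariate itself differed between the groups, and its part in the immunoglobulin values cannot be told apart from that of the treatment.

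**Figure D2:**
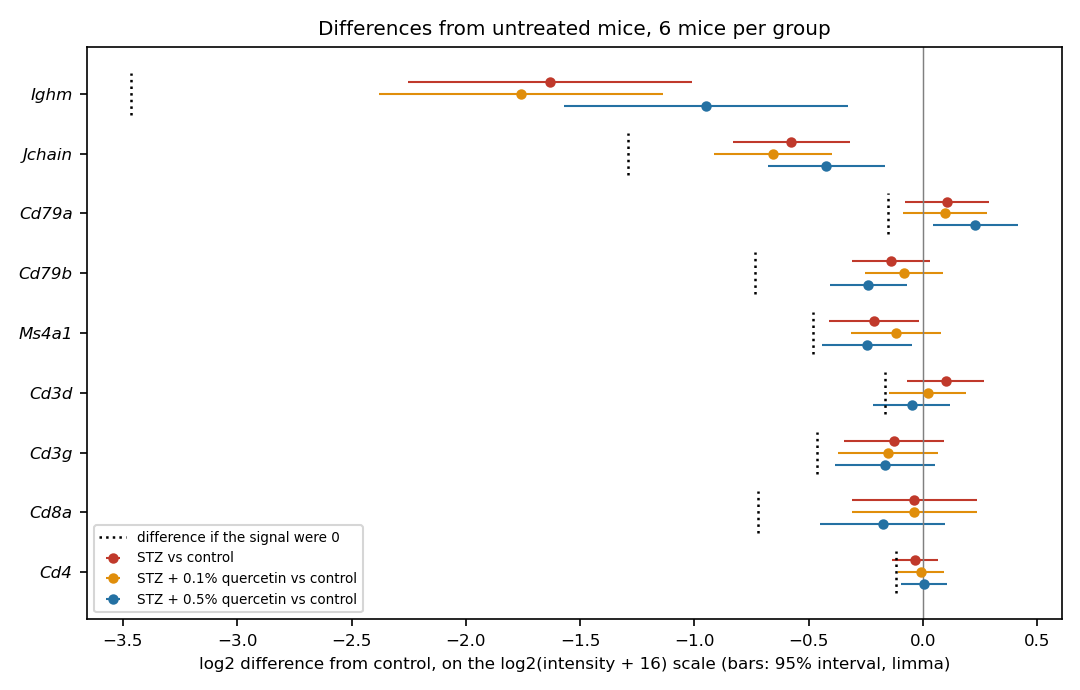
Difference from control (horizontal axis, log2 of intensity + 16) of each gene in the 3 STZ groups, as the limma estimate with its 95% interval, 6 mice per group. Dotted marks show where the difference would lie if the signal of the treated group were 0. Intervals of Ighm and Jchain lie below 0 in all 3 groups, and those of the T cell genes cross it. Also below 0 are the intervals of Ms4a1 in STZ mice and of Cd79b and Ms4a1 at 0.5% quercetin. That of Cd79a at 0.5% quercetin lies above 0.

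The array carries 11 probe sets named for Ighm alone, and they did not respond alike. Apart from 1427351_s_at, 1427329_a_at ran from 48.4 to 94.4 in controls and from 15.1 to 39.9 in STZ mice, with no overlap, and its difference was -1.0 (SE 0.21, adjusted p = 0.0140 in a limma fit of all 45101 probe sets). At 0.1% quercetin it differed by -1.06 (adjusted p = 0.00634). At 0.5% it differed by -0.82 (adjusted p = 0.147), and by -1.14 without replicates 5 and 6 (adjusted p = 0.00108). The 3 other Ighm probe sets above the filter differed by -0.09, 0.15 and -0.09 in STZ mice (1427870_x_at, 1425247_a_at and 1452535_at; adjusted p = 0.924, 0.618 and 0.838), and the 6 below it by -0.14 to 0.08. In all, 3 of the 25 member probe sets fell, these 2 and that of Jchain, while 0.461% of all probe sets did. At 0.1% quercetin 3 fell, against 0.849% of all. The suffix _x marks probe sets some of whose probes match other sequences, and _s those that match several related transcripts.

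Among 45 other immunoglobulin probe sets 34 lay below the filter, and of the 11 above it 4 fell in STZ mice, all of kappa light chains. Of all 45101 probe sets, 0.461% fell in STZ mice. All 4 kappa sets name Igkv8-30, so they are not separate results. Each of 3 probe sets, 1427455_x_at, 1427660_x_at and 1452417_x_at, names the kappa constant gene with 4 kappa variable or joining genes, so that no single gene can be given for it. Their control medians were 96.4, 116 and 88.8, and their STZ medians 40.5, 47.8 and 29.5, with no overlap between the groups in any of the 3. The differences were -1.15, -0.93 and -1.28 (adjusted p = 0.00284, 0.0108 and 0.00125, limma fit of all probe sets). At 0.1% quercetin they were -1.03, -0.87 and -0.84 (adjusted p = 0.00458, 0.0111 and 0.0152). At 0.5% they were -0.83, -0.58 and -0.74 and did not pass (0.106, 0.260 and 0.146), and without replicates 5 and 6 they were -1.13, -0.92 and -1.10 (0.000224, 0.000535 and 4.01e-05).

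In replicates 5 and 6 at 0.5% quercetin the kappa probe sets read 107 and 65.0, 119 and 114, and 97.5 and 83.3, so replicate 5 lay in the control range for all 3. The fourth, 1452463_x_at, names only Igkv8-30, a kappa variable gene that the 3 kappa sets name too, and some of its probes can match other sequences. It ran from 21.4 to 33.5 in controls and from 10.9 to 17.3 in STZ mice. It fell by 0.61 in STZ mice (SE 0.12, adjusted p = 0.00329, limma) and by 0.52 at 0.1% quercetin (adjusted p = 0.00752). In replicates 5 and 6 at 0.5% it was 33.2 and 12.0, so only replicate 5 of that pair matched the controls. The 7 probe sets above the filter that did not pass were dimmer, with control medians of 2.96 to 14.9, and differed by -0.24 to 0.10 in STZ mice (adjusted p = 0.530 to 0.989). They include 3 named for Igha, the IgA heavy chain (-0.24, 0.10 and -0.02), and a pair of kappa sets, 1452557_a_at (0.01) and 1451965_at (0.07).

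**Figure D3:**
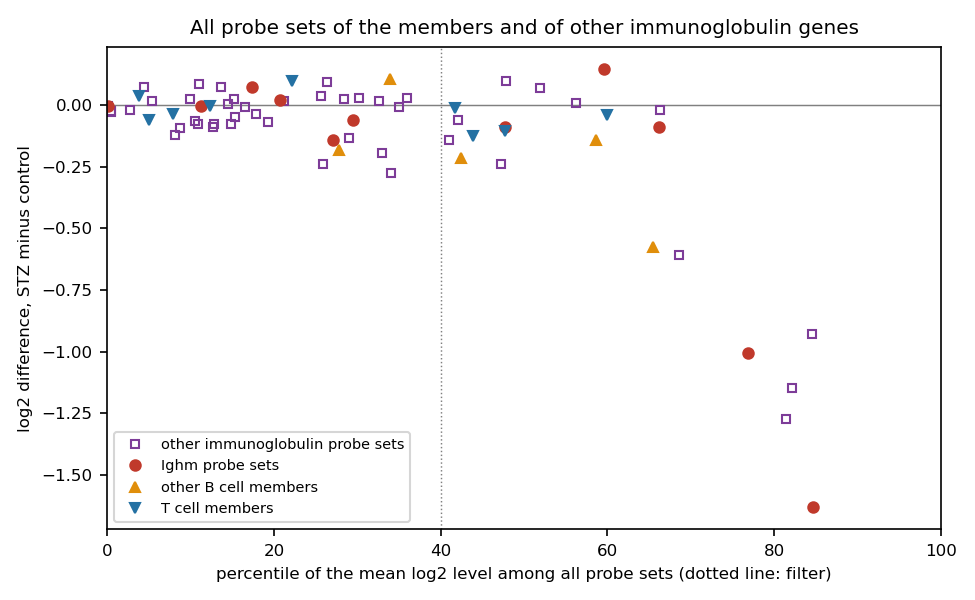
Difference between STZ and control mice (vertical axis, log2) against the percentile of mean level (horizontal axis) for all 25 member probe sets and 45 other immunoglobulin probe sets. The points at -0.58 or lower are all above the 65th percentile, and they are 2 Ighm sets, Jchain, 3 kappa sets and Igkv8-30.

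The other B cell genes were dim, and over all 24 mice their differences did not pass in limma. Cd79b, the Ig-beta chain that signals for the B cell receptor, ran from 9.77 to 12.9 in controls (median 10.2), 5.45 to 12.5 in STZ mice (7.53), 7.43 to 11.4 at 0.1% (9.23) and 4.06 to 11.3 at 0.5% quercetin (6.32). The groups overlapped, although 4, 5 and 5 of 6 mice lay below all controls. Its differences from control were -0.14, -0.08 and -0.24 (adjusted p = 0.411, 0.644 and 0.225, limma), and the last was -0.33 and passed without replicates 5 and 6 (adjusted p = 0.0271). A treated signal of 0 would have given -0.73.

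Ms4a1, the CD20 antigen of mature B cells, ran from 3.83 to 10.2 in controls (median 5.88), 0.24 to 6.40 in STZ mice (4.07), 1.85 to 7.58 at 0.1% (4.96) and 0.81 to 5.27 at 0.5% quercetin (2.53). Its differences of -0.21, -0.12 and -0.25 did not pass (adjusted p = 0.253, 0.550 and 0.283, limma). The interval in STZ mice, -0.41 to -0.02, nearly reached the -0.48 that a signal of 0 would give. A second Ms4a1 probe set, 1450912_at, was dimmer and below the filter. It differed by -0.18 in STZ mice, -0.13 at 0.1% and -0.01 at 0.5% (adjusted p = 0.343, 0.535 and 0.983, limma, all probe sets). The last was -0.02 without replicates 5 and 6 (adjusted p = 0.963). Over the 3 STZ groups Cd79b differed by -0.15 (95% interval -0.29 to -0.01, adjusted p = 0.199) and Ms4a1 by -0.19 (95% interval -0.35 to -0.03, adjusted p = 0.161), with intervals below 0 and adjusted p-values above the threshold.

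Cd79a, the Ig-alpha partner of Cd79b, was below the filter and went the other way. It ran from 0.31 to 2.87 in controls, 0.26 to 8.30 in STZ mice, 1.22 to 5.56 at 0.1% and 2.92 to 7.70 at 0.5% quercetin. At 0.5% all 6 mice lay above all controls (exact permutation test, two-sided, unadjusted p = 0.00216, adjusted 0.0234 over 54 member tests). Without the filter the limma difference was 0.23 with an adjusted p of 0.333, and both groups lay where signal from specific and unspecific binding could not be separated, since the files give no detection calls. Of all tested genes, a set that leaves out Cd79a, 0.252% lay higher in this comparison with no overlap.

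T cell genes showed no difference that passed in any comparison. Cd3g, the gamma chain of the CD3 complex, ran from 1.09 to 10.8 in controls (median 6.11), 1.90 to 7.41 in STZ mice (4.22), 0.90 to 8.95 at 0.1% (3.43) and 1.41 to 5.65 at 0.5% quercetin (3.56), with overlap throughout. It differed from control by -0.13 in STZ mice (95% interval -0.35 to 0.09, adjusted p = 0.608, limma), -0.15 at 0.1% (0.477) and -0.17 at 0.5% (0.558). A signal of 0 would have given -0.46.

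Cd8a, the alpha chain of the CD8 coreceptor, ran from 6.56 to 17.6 in controls (median 9.65), 6.79 to 12.1 in STZ mice (10.5), 1.97 to 15.2 at 0.1% (11.7) and 1.64 to 15.8 at 0.5% quercetin (7.73) on its brightest probe set, 1440164_x_at. It differed by -0.04 in STZ mice (95% interval -0.31 to 0.23, adjusted p = 0.922, limma), by -0.04 at 0.1% (0.916) and by -0.18 at 0.5% (0.633; -0.33 and 0.209 without replicates 5 and 6), where a signal of 0 would have given -0.72. The first of these turned to 0.02 on the values as deposited. The 4 other Cd8a probe sets differed by -0.10 to 0.04 in STZ mice. Of these, 1444078_at, above the filter, differed by -0.23 at 0.1% and -0.18 at 0.5% quercetin. Neither passed (adjusted p = 0.342 and 0.604, limma fit of all probe sets). The rest differed by -0.03 to 0.03 at these doses (-0.01 to 0.04 at 0.5% without replicates 5 and 6).

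Cd3d, the delta chain of CD3, and Cd4, the coreceptor of helper T cells, were below the filter. Cd3d ran from 0.24 to 5.78 over all mice and Cd4 from 0.55 to 2.41 on its brighter probe set. Fitted without the filter, Cd3d differed by 0.10 in STZ mice (adjusted p = 0.676, limma) and Cd4 by -0.04 (adjusted p = 0.822). The Cd4 interval of -0.14 to 0.06 includes the -0.12 that a signal of 0 would give, so even a complete loss of that signal would not have been seen.

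The wider lists of cell type genes were compared with control over the mean of the 3 STZ groups, where 2.98% of all genes rose and the median difference of all genes was -0.02. Of 6 tested members 2 fell, 6 of 6 estimates were below 0 and the median was -0.17. The members below the filter went both ways: Cd79a differed by 0.14, Cd3d by 0.02 and Cd4 by -0.01. The filter took the mean over all arrays, controls included. Ms4a1 averaged 4.48 in controls and 4.29 over the STZ groups in log2, where the filter lay at 4.31. The shared sign of the tested members is therefore no support for a fall of the set. Of 5 tested genes in the list of other immunoglobulin genes, 1 fell (Igkv8-30, difference -0.55, adjusted p = 0.000945, limma) and the median was -0.08. Of 17 other B cell genes tested, from 28 on the array, 2 rose, 0 fell and the median was -0.01. Those that rose were Ly86, the MD-1 partner of the CD180 receptor made by B cells and macrophages (0.39, adjusted p = 0.00639), and Cd72, a coreceptor of B cells also found on macrophages (0.25, adjusted p = 0.0382).

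Of 8 plasma cell genes 1 rose, Sdc1, the syndecan that hepatocytes also express (0.51, adjusted p = 0.00547, limma). Mzb1, an endoplasmic reticulum chaperone of IgM assembly, had a control median of 16.2 and group medians of 9.17, 13.5 and 11.6. Its difference of -0.25 missed the threshold (adjusted p = 0.0729) but met it without replicates 5 and 6 at 0.5% quercetin (-0.26, adjusted p = 0.0428). Of 4 pre-B and progenitor genes 0 changed, with 0 at an unadjusted p under 0.05.

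Of 11 other T cell genes tested, from 30 on the array, 1 rose, 0 fell and the median was 0.07. The gene was Icos, a costimulatory receptor of activated T cells (0.28, adjusted p = 0.0357, limma), whose medians of 4.93 in controls and 9.31, 10.1 and 9.20 in the STZ groups lay low in the range, and whose call was lost on the values as deposited (0.30, adjusted p = 0.133). Of 8 natural killer and cytotoxic genes tested, from 18 on the array, 0 changed and 0 had an unadjusted p under 0.05. The rest of both lists lay below the filter and were not tested. The pan-leukocyte list did not fall with the immunoglobulin genes: 1 of 18 rose, 0 fell and the median was 0.08. That gene was Ptprc, the CD45 antigen of all leukocytes (0.28, adjusted p = 0.0391), which did not pass on the values as deposited (0.34, adjusted p = 0.139) or with median scaling (0.25, adjusted p = 0.0839). Without replicates 5 and 6 at 0.5% quercetin, 2 B cell genes, 1 T cell gene and 2 pan-leukocyte genes rose and 0 of these 3 lists fell. In that fit 616 of all 13114 tested genes rose and 651 fell, more than with these mice, so such small counts are no result about the lists.

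Lists of macrophages and antigen presentation rose while Ighm fell. Of 6 tested MHC class II genes 4 rose and 0 fell, with a median of 0.71, and H2-Eb1, a class II beta chain, differed by 0.99 (adjusted p = 9.73e-05, limma). The mean of this list per mouse was 5.30 to 5.73 in controls, 6.18 to 6.44 in STZ mice, 6.09 to 6.40 at 0.1% and 5.40 to 6.34 at 0.5% quercetin. Of 13 Kupffer cell and macrophage genes 6 rose and 0 fell, with a median of 0.24. The macrophage count was 0 on the values as deposited, 3 with median scaling and 11 without replicates 5 and 6 at 0.5% quercetin, and the class II count was 4 in each of these. Of all 13114 tested genes, 132, 230 and 616 rose in these settings, in the same order. With the Gapdh covariate 0 genes of either list passed.

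Among the remaining lists, 0 of 7 dendritic cell genes and 0 of 7 neutrophil genes changed, with 0 and 1 at an unadjusted p under 0.05. Of 11 genes for lymphocyte homing and survival 1 rose, Cxcl9, a chemokine for activated T cells (0.56, adjusted p = 0.0104, limma). Of 10 sinusoidal endothelial genes 1 rose, Lyve1 (0.84, adjusted p = 0.000992), and of 9 hepatocyte genes 0 changed, with 2 at an unadjusted p under 0.05. In the blood cell lists, 1 of 5 erythroid genes fell (Alas2, -0.59, adjusted p = 0.0471) and 1 of 4 platelet genes fell (Pf4, -0.36, adjusted p = 0.0155). The erythroid list averaged 5.79 ± 0.18 (SD, n = 6) in control and 5.74 ± 0.11 in STZ mice (exact permutation test, two-sided p = 0.686). It averaged 5.62 ± 0.16 at 0.1% quercetin, where the median difference of its 5 tested genes from control was -0.17, and 5.80 ± 0.09 at 0.5%. With that mean as a covariate 2 members still fell in STZ mice and 2 at 0.1% quercetin, while the genes that fell and rose at 0.1% went from 346 and 385 to 109 and 158. Of 3 exocrine pancreas genes 1 fell, Cela1 (-1.21, adjusted p = 7.84e-05), while Prss2 and Cela3b differed by 0.11 and -0.01 (adjusted p = 0.737 and 0.974). Over the 3 STZ groups, the calls of Cd72, Sdc1 and Pf4 were lost on the values as deposited (adjusted p = 0.155, 0.123 and 0.179, limma), that of Sdc1 was also lost with median scaling (0.0592), and those of Cd72, Icos and Alas2 with the erythroid covariate (0.0516, 0.0703 and 0.0677). With the Gapdh covariate none of the genes of these lists named here passed.

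**Figure D4:**
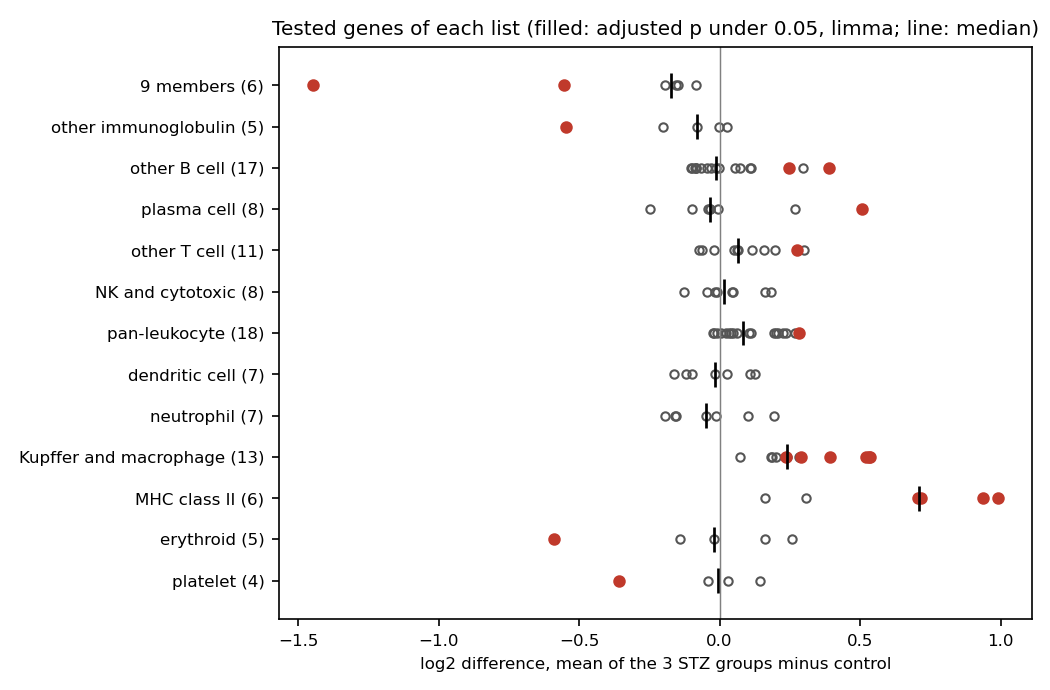
Difference between the mean of the 3 STZ groups and control (horizontal axis, log2) for the tested genes of 13 lists, with the number tested in brackets, filled points for an adjusted p under 0.05 (limma) and a line at each median. The 3 filled points of the top 2 lists lie below 0 (Ighm, Jchain and Igkv8-30), and the 4 of MHC class II and 6 of the Kupffer and macrophage list lie above it.

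Within the groups, Ighm followed other transcripts more closely than it followed Jchain. Over the 24 arrays, as deviations from the group means, Pearson's r of Ighm with Jchain was 0.41 (permutation p = 0.171, adjusted over 4 relations 0.274) and Spearman's rho was 0.29 (p = 0.237, adjusted 0.316), and r was 0.33 without the 2 farthest mice, replicates 5 and 6 at 0.5% quercetin. Jchain ranked 1385th among 13113 genes by this r. With Igkv8-30, r was 0.41 (p = 0.206, adjusted 0.274) and rho 0.28 (p = 0.220, adjusted 0.316), and r was 0.33 without those mice. With H2-Eb1 the relation was inverse, with r = -0.76 (permutation p = 0.00313, adjusted 0.0125) and rho = -0.64 (p = 0.00636, adjusted 0.0254), and r was -0.56 without the 2 mice. H2-Eb1 ranked 13088th among the 13113 genes by this r, so other genes were more inverse to Ighm. H2-Eb1 was picked from these same data for its small p against control, while the adjustment covers 4 relations only. Replicates 5 and 6 at 0.5% quercetin lay with the controls in both Ighm and the class II list. The p-values for H2-Eb1 are therefore no support independent of the difference from control. With Hba-a1, a haemoglobin gene, r was 0.20 (p = 0.320, adjusted 0.320) and rho 0.15 (p = 0.510, adjusted 0.510), and r was 0.08 without the 2 mice. The r values without the 2 mice kept the deviations from group means that include those mice. The other 0.5% quercetin mice thus keep an offset, and these r values are not free of the 2 mice.

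The 5 genes most like Ighm by this measure were Sec11a, a signal peptidase subunit (r = 0.90), Tpt1 (0.89), Znhit1 (0.89), Lect2, a protein secreted by hepatocytes (0.88), and Ces1e, a carboxylesterase (0.86). Without replicates 5 and 6 at 0.5% quercetin these were 0.86, 0.83, 0.86, 0.79 and 0.78 over 22 arrays. For the mean of the tested T cell genes the 5 were Tmem30a (0.80), Notch2 (0.74), Pkn2 (0.70), Pdcd6ip (0.69) and Ccdc127 (0.66), and 0.78, 0.71, 0.76, 0.64 and 0.64 without the same mice. The values without replicates 5 and 6 also kept the deviations from group means that include those mice. The other 0.5% quercetin mice thus keep an offset, so these values cannot show whether the likeness holds without replicates 5 and 6. The T cell mean is that of Cd3g and Cd8a alone, both dim, with medians of 4.84 and 10.3 over all arrays. Each set of 5 was picked as the highest r among 13108 genes. Such values are large by selection, and they were not tested. All the r values rest on arrays that share labelling and depth of signal, and genes are not independent.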

How the data were processed

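Liver RNA of 24 mice was labelled with biotin and hybridised to 1 array each, per the labels' protocols. The deposited values are linear intensities of 45101 probe sets, with no detection calls. How the authors summarised or scaled them is not given in the sources used here. Array means ranged from 61.0 to 102.0 and medians from 4.96 to 7.98, so intensities were quantile normalised before log2(intensity + 16). The number of arrays limits the precision. Symbols came from the platform table: 34958 probe sets had 1, 932 several and 9211 none, and for 34754 the gene ID was in the table of GRCm38.p6 genes, which changed 0 names.

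A gene was represented by its single-symbol probe set with the highest mean, and genes under the 40th percentile of probe set means were left out, leaving 13114 of 18194. Groups were compared in limma 3.58.1 (R 4.3.3), in 1 fit of 4 group means, two-sided, with Benjamini-Hochberg adjustment over all genes tested and a threshold of 0.05. Members below the filter were read from a fit of all genes. The script was tested on simulated data. The 9 members and 17 other gene lists were chosen with earlier results of these data known. Named genes were all members, the 2 smallest p of each other list, called immunoglobulin, B and T cell genes, and the 5 most like Ighm or the T cell mean; values are given for those a result turns on, and Cela3b and Hba-a1 were added. Replicate numbers are shared by the groups, but of 36 same-number pairs only 5 correlated above 0.1 (-0.14 to 0.32), so they were not treated as pairs. Each array is a separate mouse, per the labels, and p-values measure the spread between these mice. Alternatives changed scaling, constant, filter, probe set rule, variance prior, samples and covariates.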

Additional observations from a re-analysis of the deposited data

Results flagged for a closer look

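Cd79b in control replicate 3 stood apart from the other 5 controls, at 4.85 on the log2(intensity + 16) scale (intensity 12.9), where the next highest was 4.74 and the lowest 4.69. Its gap to the next mouse was 0.68 of the range of the group. This was the only such sample among 36 sets of 6 mice examined (9 genes in 4 groups), and chance alone flags about 1 set in 20.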

How the results depend on the processing

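There were 15 alternatives and 24 fits that left out an array in turn. The count of members that fell was 2 in STZ mice, at 0.1% quercetin and over the 3 STZ groups in every one of these except with the Gapdh covariate, where it was 0 in all 3 comparisons. At 0.5% quercetin against control the count of 0 became 2 with median scaling (Ighm -1.09, adjusted p = 0.0156, Jchain -0.45, adjusted p = 0.0255, limma) and 3 without replicates 5 and 6, and ranged from 0 to 2 as arrays were left out in turn. In the other comparisons that range was a single value, 2 to 2 against control and 0 to 0 between STZ groups. Uncalled values changed sign in few settings: Cd8a in STZ mice was 0.022 on the values as deposited and ranged from -0.085 to 0.030 as arrays were left out, Cd8a at 0.1% quercetin ranged from -0.094 to 0.066, Cd79b at 0.1% was 0.025 with the Gapdh covariate, and with the erythroid covariate Ighm and Jchain at 0.1% against STZ were 0.057 and 0.0026. Averaging all Ighm probe sets gave -0.25 in STZ mice (adjusted p = 0.0348, limma). By construction this smaller value includes the Ighm sets that did not fall, both dim ones and ones above the filter.

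The replicate block left Ighm and Jchain called in STZ mice (adjusted p = 0.00918 and 0.0125, limma) and at 0.1% quercetin (0.00373 and 0.00367), and changed no member's call. It left all genes lower and higher at 171 and 240 in STZ mice and at 3 and 3 at 0.5% quercetin, and 5 of 24 arrays correlated best with their own number. Counts over all genes (lower, higher) moved more. In STZ mice they were 222 and 266, 41 and 120 as deposited, 286 and 171 with median scaling, 140 lower with a constant of 1, and 2 and 4 with the Gapdh covariate. At 0.1% quercetin they were 346 and 385, 90 and 127 as deposited, 542 and 220 with median scaling, 1 and 3 with the Gapdh covariate and 109 and 158 with the erythroid covariate. At 0.5% they were 10 and 7, 652 and 36 with median scaling, 199 and 234 without replicates 5 and 6, and 0 to 15 and 0 to 16 in the other alternatives. Over the 3 groups they were 378 and 391, 79 and 132 as deposited, 899 and 230 with median scaling, 2 and 8 with the Gapdh covariate, 246 lower with the erythroid covariate, and 651 and 616 without replicates 5 and 6. As arrays were left out in turn, the lower counts ranged from 100 to 250 in STZ mice (100 without STZ replicate 6, 130 and 147 without STZ replicates 3 and 2, 114 and 131 without control replicates 3 and 4), from 196 to 383 at 0.1% (196 and 211 without replicates 5 and 6 of that group), from 1 to 62 at 0.5% (62 without either replicate 5 or 6 of that group), and from 206 to 464 over the 3 groups (206, 235, 250 and 250 without control replicates 3, 4, 2 and 6). The higher counts ranged from 146 (without STZ replicate 6) to 301, from 244 to 433 (244 and 249 without replicates 5 and 6 at 0.1%), from 0 to 88 (75 and 88 without replicates 5 and 6 at 0.5%) and from 272 to 476. The background shares beside the members' counts move with these. The cause was not tested. Signal close to the lower end limits what can be said of Cd79a, Ms4a1 and the T cell genes.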
